A study of Mus musculus with 20 samples.

Results

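The 36 genes described here encode transcription factors of the paired (Pax), sine oculis (Six2 to Six6), NK (Nkx), LIM-homeodomain (Lhx, Isl and Lmx), HMX and VAX families. They were chosen by name, among 21631 protein-coding genes on chromosomes 1 to 19 and X in RefSeq's annotation of the mm10 assembly (GRCm38.p6). Chromatin was profiled by CUT&RUN, in which an antibody directs a nuclease to cut out the DNA that its target occupies, on nuclei sorted by flow cytometry from mouse whole brain. There were 20 libraries in 10 groups of 2: antibodies to H3K4me1, H3K4me3, H3K27ac, H3K27me3 and the transcription factor EGR1, each in nuclei labelled excitatory or inhibitory neuron. Every group, excitatory and inhibitory alike, came from 8-week-old mice of the genotype Sun1 f/f | Emx1Cre (+), so, as far as the labels say, the groups differ in cell type and antibody alone. Emx1 drives Cre in the dorsal forebrain lineage, and the gate for inhibitory nuclei is not stated in the labels. Whether replicate libraries came from different animals is not stated either, so p-values measure the spread between these libraries, which may be technical.

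The paired and homeobox factors named here lay out the body plan: they mark out territories along the neural tube, eye, ear, heart, kidney, gut and limb, and most are switched off once a cell has settled on another fate. Polycomb complexes keep such genes silent and leave H3K27me3 over them in broad domains. H3K4me3 marks promoters, H3K4me1 enhancers and the edges of promoters, and H3K27ac active promoters and enhancers. A gene start that carries H3K4me3 together with H3K27me3 is often called bivalent, and developmental regulators are the classic examples. EGR1 is a zinc-finger factor induced by neuronal activity.

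The measurement is the percentage of a gene's window that peaks of a library covered. For H3K27me3, H3K4me1 and H3K27ac the window was the gene body with 5 kb on each side, and for H3K4me3 and EGR1 it was the 4 kb centred on each gene end. Differences are excitatory minus inhibitory in percentage points, on coverage normalized between libraries, with limma's standard error and with p-values adjusted by the Benjamini-Hochberg method over all genes tested. Peak lists carry no read counts, so library depth is unknown. The windows of 13 members touch another protein-coding gene, and peaks there cannot be assigned to a member alone. A gene was tested if 2 or more libraries had a peak in its window. Some members entered through the libraries of 1 cell type alone, so the direction of their difference and the lack of overlap were set by that filter. These were Six6 in H3K4me1 (inhibitory), Pax2, Six3, Nkx2-2 and Lhx4 in H3K27ac (excitatory), Pax8, Pax9 and Isl1 (excitatory) and Pax5 (inhibitory) in H3K4me3, and Pax7, Six2, Lmx1b and Hmx3 (excitatory) and Lhx1 (inhibitory) in EGR1.

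Markers of the labelled cell types were checked first, and some went against the labels. H3K27ac over the 13 inhibitory neuron markers had a median of 4.91% and 6.26% of the window in the excitatory libraries and of 0% in both inhibitory libraries, where 9 and 10 of the 13 were at 0. Gad1, which encodes a GABA-synthesizing enzyme, was covered by H3K4me1 to 21.2% and 25.4% in excitatory against 4.42% and 7.40% in inhibitory libraries. EGR1 went the other way, with medians over these markers of 0% in both excitatory libraries and of 5.56% and 4.65% in the inhibitory ones. Over the 9 cerebellar granule neuron markers, H3K27me3 had medians of 22.8% and 27.6% in excitatory and 0% in both inhibitory libraries, and H3K4me3 rose in inhibitory libraries at 3 of the 9. The part of the cell makeup of the sorted nuclei in the results below was not tested, and in such bulk libraries fewer cells of a type and less signal per cell cannot be told apart. Excitatory forebrain markers mostly leaned with the labels, with a difference above 0 at 10 of 11 in H3K4me1, 9 of 11 in H3K27ac and 7 of 10 tested in EGR1, while H3K4me3 was split 5 to 5. The only one of them past the test was Tbr1, a cortical projection neuron gene, whose H3K4me3 was higher in the inhibitory libraries (difference -29.95 points). The words excitatory and inhibitory stand for the labels throughout.

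H3K27me3 covered far more of these genes than of the median gene. Peaks covered part of the window of all 36 members in both excitatory libraries and of 35 in both inhibitory libraries, the exception being Lhx1 (51.0% and 63.1% of all genes). H3K4me1 peaks were also present at all 36 in 2 or more libraries (83.3% of all genes). The median member had 27.4% and 29.4% of its window covered by H3K27me3 in the excitatory libraries and 31.8% and 29.6% in the inhibitory ones. The median of all genes was 1.54% and 1.60%, and 4.95% and 2.84%. The median member lay at the 95.6th and 95.2nd percentile of all genes in excitatory and at the 95.6th and 94.2nd in inhibitory libraries. In the excitatory libraries 33 of the 36 were among the top 10% of genes in each, and in the inhibitory libraries 24 in each. With the window at the gene ends fewer were, 16 and 17 in the excitatory libraries and 12 in each inhibitory library.

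The extent of the cover varied among the members. With Lhx1 left aside, the lowest value in any library was 13.4%, for Nkx6-3, a gene of the stomach epithelium, and the highest was 53.2%, for Nkx2-6, a gene of the pharynx and early heart. The NK genes had medians of 32.2% and 29.8% in excitatory and of 37.7% and 27.8% in inhibitory libraries. Nkx1-1 had 49.1% and 43.9% in excitatory and 52.1% and 37.5% in inhibitory libraries. Nkx6-1, which patterns the ventral neural tube and serves the beta cell, had 33.7% and 49.7%, and 46.7% and 38.2%. The paired genes had medians of 25.7% and 28.8%, and of 26.3% and 30%, and the medians of the sine oculis, LIM, and HMX and VAX genes in the 4 libraries lay between 25.8% and 34.6%. The widest H3K27me3 peak at a member had a median width of 2463 bases, and its median percentile of widths in its own list was 96.2. It was the widest of a median of 6 peaks in a window, ranked against single peaks, which favours a high rank. The same percentile was 86.0 in H3K4me1 and 82.6 in H3K4me3. It was not taken for all genes, so it does not show that domains at members are unusually wide.

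These H3K27me3 lists were deposited at a lenient threshold, and between 0.0049% and 0.0099% of their peaks pass a q-value of 0.05. With peaks of a -log10 p of at least 2, a cutoff chosen after the data were seen, 29 and 23 members were still covered in excitatory libraries, and 26 and 17 in inhibitory ones. The share of members was then 80.6% and 63.9%, and 72.2% and 47.2%, against 31.4% and 28.7%, and 23.7% in each inhibitory library, of all genes. With a -log10 p of at least 3 no more than 3 members were covered in any library.

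Around the gene start fewer members carried H3K27me3 than 2 kb downstream of it. A RefSeq promoter entry gave a start for 30 of the 36 members. At the start base itself a peak lay over 20% of these 30 in each excitatory library and over 20% and 26.7% in the inhibitory libraries. At 2 kb downstream the shares were 43.3% and 30%, and 40% in each inhibitory library. Over 17274 genes with a start the shape was the opposite, with 13.9% to 17.5% at the start and 8.12% to 13% at 2 kb downstream.

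**Figure D1:**
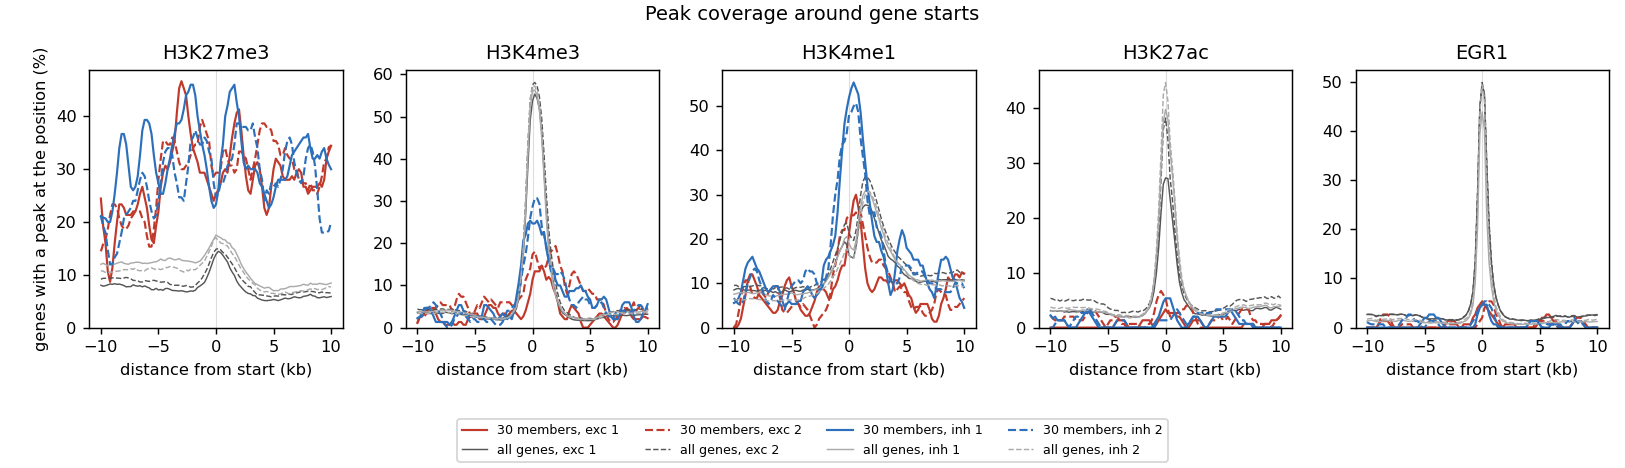
Share of genes with a peak at each position from 10 kb before to 10 kb after the start (x axis in kb, y axis in percent), for the 30 members with a start in the RefSeq promoter table (red excitatory, blue inhibitory, solid replicate 1, dashed replicate 2, averaged over 5 positions) and for 17274 genes (grey). Members lie above all genes in H3K27me3 at nearly every distance, below them in H3K4me3, H3K27ac and EGR1 at the start, and above them in H3K4me1 at the start in the inhibitory libraries.

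Between the labelled cell types no member passed the test in H3K27me3. None of the 36, and 0.0% of all genes (0 of 15438), passed an adjusted p of 0.05 in limma, and 4 members and 4455 genes had an unadjusted p under 0.05. The median difference was 1.95 points for the members and 0.05 for all genes. It was below 0 for 16 of the 36 members (49.3% of all genes tested), and for 22 without normalization, where the median of all genes moved to -2.06. Both inhibitory libraries lay above both excitatory at 10 members (48.7% of all genes did) and both excitatory above both inhibitory at 7 (14.2%).

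Lhx1, described next, had the largest difference, and NK genes and Pax1 followed it. Nkx6-3 had 26.99% and 26.02% in excitatory and 13.4% and 23.9% in inhibitory libraries (11.65 ± 4.75, adjusted p = 0.202), and its window touches Ank1. Nkx2-2, which specifies ventral interneurons and oligodendrocytes, had 32.4% and 36.2% against 27.7% and 25.2% (10.93 ± 3.04, adjusted p = 0.104). Pax3, a dorsal neural tube and muscle progenitor gene, had 27% and 31.8% against 25.6% and 24.6% (7.48 ± 2.69, adjusted p = 0.164). Hmx1 had 32.6% and 29.7% against 29.0% and 25.6% (6.96 ± 3.51, adjusted p = 0.281).

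In the other direction Pax1 had 22.2% and 21.2% in excitatory and 36.7% and 32.4% in inhibitory libraries (-9.67 ± 3.16, adjusted p = 0.139). Lhx5 had 27.5% and 16.4% against 35.9% and 33.1% (-9.17 ± 5.17, adjusted p = 0.326), and Vax2 had 25.3% and 26.8% against 36.9% and 35.1% (-7.02 ± 3.10, adjusted p = 0.229). Nkx6-2 and Isl1 followed with -6.07 ± 6.15 and -5.34 ± 4.35 points (adjusted p = 0.564 and 0.479). With peaks of a -log10 p of at least 2 all 5 of these differences had the other sign (5.85 points for Pax1, 4.48 for Lhx5, 4.54 for Vax2, 0.59 for Nkx6-2 and 2.27 for Isl1), and none passed the test.

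Lhx1 stood outside that pattern (chromosome 11, 84517975 to 84525534, minus strand). It encodes a LIM-homeodomain factor of the head organizer, the kidney and Purkinje cells. H3K27me3 covered 36.5% and 26.5% of its window in the excitatory libraries and 3.37% and 0% in the inhibitory ones, so the groups did not overlap. The difference of 32.32 ± 4.83 points (SE) was the 10th largest in this direction of 15438 genes, with an adjusted p of 0.0555. Its p was the 508th smallest of these genes, and all genes with a smaller p share that adjusted value. Leaving out each library in turn gave 26.72 to 38.46 points (adjusted p of 0.103 to 0.212). With peaks of a -log10 p of at least 2 the difference was 15.96 points (adjusted p = 0.150).

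At Lhx1 H3K4me3 differed in the other direction. It covered 4.96% and 6.24% at its ends in excitatory and 20.3% and 26.8% in inhibitory libraries (difference -18.77 ± 2.64, adjusted p = 0.0223). Within 2 kb of the start the values were 9.92% and 12.47% against 40.6% and 53.7%, a difference of -37.26 ± 4.55 points (adjusted p = 0.0106). H3K4me1 covered 19.7% and 14.2% of the window against 32.9% and 39.5% (difference -19.49 ± 4.03, adjusted p = 0.0582). For H3K27ac the values were 9.78% and 6.99% against 16.3% and 19.2% (difference -7.52 ± 2.67, adjusted p = 0.234). EGR1 had no peak at the gene ends in either excitatory library and covered 3.29% and 3.6% in the inhibitory libraries (difference -4.73 ± 1.24, adjusted p = 0.174). Of these marks only H3K4me3 passed the test.

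The window of Lhx1 also reaches the start of Aatf, which encodes a transcription cofactor and is transcribed in the same direction from 84513584. The strongest H3K4me3 and EGR1 peaks of the gene body window lay there in all 4 libraries of each antibody. The H3K4me3 and EGR1 windows at the Lhx1 ends do not include that start, while the H3K27ac and H3K4me1 windows do. At the gene ends alone the groups overlapped in both: the H3K27ac difference was -0.09 ± 3.54 points, and that of H3K4me1 was -7.99 ± 5.78 (adjusted p = 0.494), with 10.4% and 0% against 3.74% and 18.8%. Within 2 kb of the start H3K27me3 covered 30.9% in the first excitatory library and 0% in the other 3, so there the groups overlapped too. Beside this result, the granule neuron markers also had lower H3K27me3 and higher H3K4me3 in the inhibitory libraries, as given above, and their part in it was not tested.

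**Figure D2:**
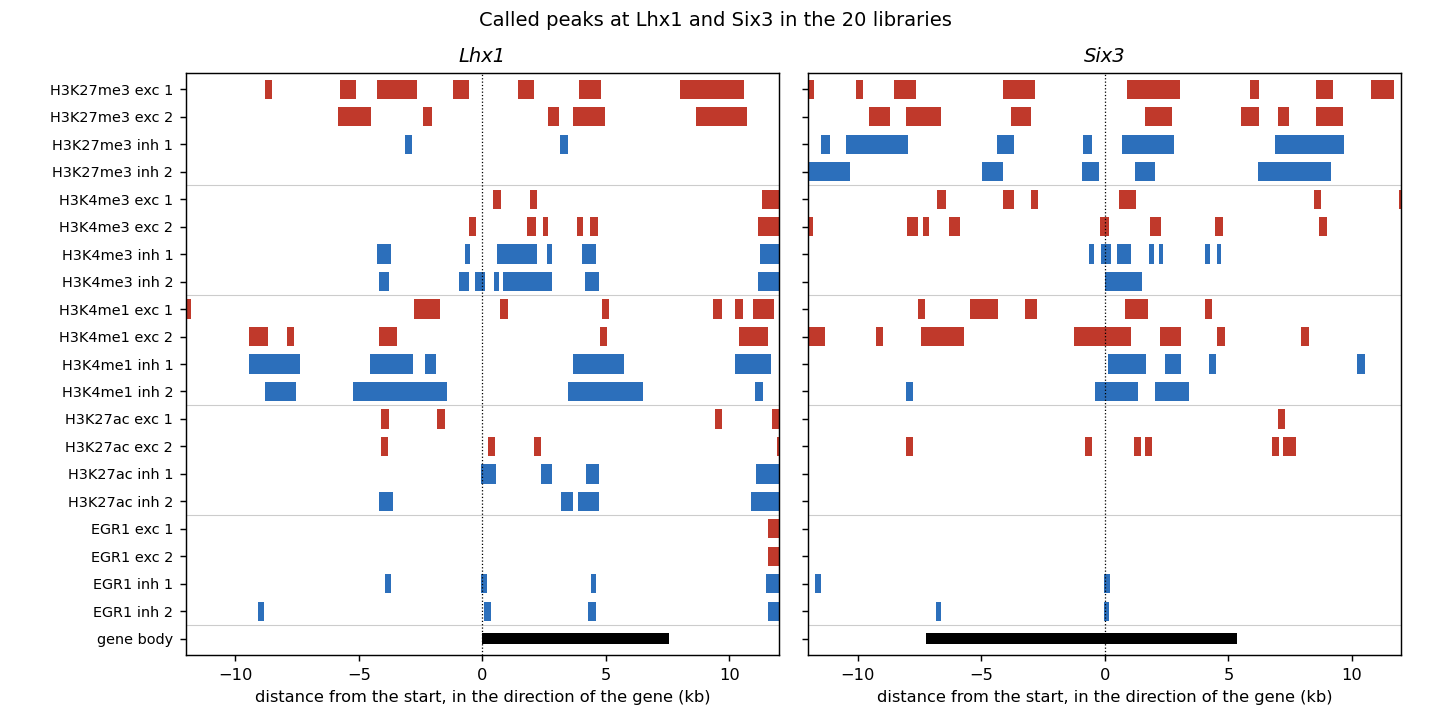
Called peaks from 12 kb before to 12 kb after the start of Lhx1 and Six3 (x axis in kb, along the direction of the gene), with a row for each of the 20 libraries, red for excitatory and blue for inhibitory, and the gene body in black. At Lhx1 wide H3K27me3 peaks lie in the excitatory rows and wide H3K4me3 peaks near the start in the inhibitory rows, and at Six3 H3K27me3 lies on each side of the start in all 4 rows while H3K4me3 close to the start covers more in the inhibitory rows.

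Base composition of the promoters helps to place these starts, since Polycomb domains and H3K4me3 both favour DNA rich in CpG. The 250 bases before the start held a median of 14 CpG in the 35 promoters of the 30 members and of 10 in 21045 promoters of all genes. The range over the members was wide, from 1 at the upstream start of Hmx2 to 33 at Isl1, a gene of motor neurons and the early heart. The 6 sequences below belong to members with some of the largest H3K4me3 or H3K4me1 differences at the gene, its ends or its start. They are from RefSeq on GRCm38.p6, read 5′ to 3′ on the strand of the gene and ending at the base before the start, with each CpG in capitals. They lie at chr11:84525535-84525784 (minus strand), chr5:33434091-33434340 (minus), chr17:85688255-85688504 (minus), chr17:85620584-85620833 (plus), chr12:72939632-72939881 (plus) and chr19:43612075-43612324 (plus).
Lhx1: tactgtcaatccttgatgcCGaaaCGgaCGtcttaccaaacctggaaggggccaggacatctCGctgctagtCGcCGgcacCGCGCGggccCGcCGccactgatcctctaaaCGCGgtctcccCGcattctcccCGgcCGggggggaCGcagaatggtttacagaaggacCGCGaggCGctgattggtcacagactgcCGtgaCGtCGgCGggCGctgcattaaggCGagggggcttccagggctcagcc
Nkx1-1: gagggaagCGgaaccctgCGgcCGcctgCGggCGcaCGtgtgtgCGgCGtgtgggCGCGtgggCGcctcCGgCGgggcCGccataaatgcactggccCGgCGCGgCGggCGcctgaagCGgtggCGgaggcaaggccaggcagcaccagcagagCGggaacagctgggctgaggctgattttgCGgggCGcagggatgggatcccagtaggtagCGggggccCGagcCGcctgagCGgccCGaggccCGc
Six2: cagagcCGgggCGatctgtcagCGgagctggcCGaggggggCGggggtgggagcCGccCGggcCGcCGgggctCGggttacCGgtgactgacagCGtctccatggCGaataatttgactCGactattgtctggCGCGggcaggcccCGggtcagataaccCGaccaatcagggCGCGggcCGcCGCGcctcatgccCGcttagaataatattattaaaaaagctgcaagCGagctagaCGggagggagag
Six3: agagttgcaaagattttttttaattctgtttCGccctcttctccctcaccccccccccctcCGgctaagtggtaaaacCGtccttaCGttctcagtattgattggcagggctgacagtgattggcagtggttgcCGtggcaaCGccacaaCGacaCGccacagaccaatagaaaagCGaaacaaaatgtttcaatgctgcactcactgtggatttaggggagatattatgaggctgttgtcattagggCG
Six6: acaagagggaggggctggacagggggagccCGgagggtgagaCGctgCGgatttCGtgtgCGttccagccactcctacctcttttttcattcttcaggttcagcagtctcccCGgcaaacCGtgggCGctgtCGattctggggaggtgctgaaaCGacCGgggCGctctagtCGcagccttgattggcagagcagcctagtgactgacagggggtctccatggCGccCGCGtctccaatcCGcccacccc
Nkx2-3: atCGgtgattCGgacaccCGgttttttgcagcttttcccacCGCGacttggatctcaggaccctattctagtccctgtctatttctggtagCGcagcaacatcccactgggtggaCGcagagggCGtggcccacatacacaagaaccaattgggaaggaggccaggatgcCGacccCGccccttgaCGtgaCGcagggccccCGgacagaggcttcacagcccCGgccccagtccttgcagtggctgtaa
CpG numbered 26 in the Lhx1 promoter, 30 in that of Nkx1-1, 26 in that of Six2, 10 in that of Six3, 17 in that of Six6 and 14 in that of Nkx2-3. Within these 250 bases, H3K4me3 peaks covered no base of the Six2 promoter in either excitatory library and 190 and 250 bases in the inhibitory libraries. H3K4me1 peaks covered no base of the Six6 promoter in excitatory libraries and all 250 in both inhibitory libraries. At the Lhx1 promoter H3K4me3 covered 0 and 8 bases against 0 and 250, so only the second inhibitory library reached across it.

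H3K4me3 peaks covered little of the ends of these genes in both cell types, though most members had one. A peak lay at the ends of 32 members in 2 or more libraries (88.9%, against 72.5% of all genes). Over the gene body with flanks the median member had 2.8% and 6.4% in excitatory and 6.2% and 6.1% in inhibitory libraries. The median of all genes in that window was 4.2% and 5.7%, and 5.0% and 4.5%. At the ends the cover was lower than that of all genes. The median member had 3.64% and 9.62% of its gene ends covered in excitatory and 8.18% and 10.1% in inhibitory libraries, where the median of all genes was 15.8% and 18.2%, and 16.2% and 16.8%. Members were then sorted by which marks were present in both libraries of a cell type, within 2 kb of the same gene end. The classes shared by or limited to a cell type were not counted over all genes, so they have no background share. H3K4me3 and H3K27me3 were both present at 13 members in both cell types, among them Pax2, a midbrain-hindbrain and kidney gene, Nkx2-2 and Nkx6-2 of the ventral neural tube, and Lmx1b of dopaminergic and serotonergic neurons. A further 3 had both marks at an end only in the excitatory lists (Pax8, Pax9 and Six3) and 11 only in the inhibitory lists, such as Pax3, Pax5, Nkx6-1, Lmx1a, Vax1 and Vax2. The other 9 had no end with both marks in either cell type. Lhx1 is among these 9, and it was the only member with H3K4me3 and without H3K27me3 at its ends in both inhibitory libraries (2.78% of members, against 41.0% of all genes). Ends can miss a start, as given below. Within 2 kb of the starts of Six3 and Lhx4 both marks were present in every library of both cell types. H3K27me3 covered 27.9% and 9.05% there in excitatory and 41.2% and 36.2% in inhibitory libraries at Six3. At Lhx4 it covered 26.6% and 42.4%, and 44.2% and 61.0%. Nkx2-2 had no H3K27me3 around its start in the first excitatory library, and Lhx9 none in the second inhibitory library.

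In shares, both marks were present at 16 of 36 members (44.4%) in excitatory and 24 of 36 (66.7%) in inhibitory libraries, against 15.9% and 20.4% of all genes. The difference between the cell types was not tested. The excitatory count was 32 without replicate 1, whose H3K4me3 list was the shortest (25.6% of all genes), and 20 without replicate 2 (20.8%). Requiring 500 bases of each mark gave 5 members (13.9%, against 10.2% of all genes) in excitatory and 15 (41.7%, against 12.9%) in inhibitory libraries, so the excitatory share was then near that of all genes. With peaks of a -log10 p of at least 2 there were 3 (8.33%, against 2.7%) and 2 (5.56%, against 5.13%). Leaving out a replicate could only raise these counts, and the stricter settings could only lower them. The marks come from different libraries, so the counts do not show both on the same nuclei.

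Between the cell types 4 of the 36 members changed in H3K4me3 at the gene ends (3.02% of all genes tested did), and all 4 were higher in inhibitory libraries (1.22% of all genes, against 1.8% higher in excitatory). They were Six2, Nkx1-1, Lhx1 and Vax2. Six2, a gene of nephron progenitors (chromosome 17, 85662736 to 85688254), had 0% and 5.46% in excitatory and 25.1% and 20.7% in inhibitory libraries (difference -21.11 ± 2.60, adjusted p = 0.0175). Nkx1-1 (chromosome 5, 33430734 to 33434090) had 6.43% and 10.4% against 35.1% and 32.6% (difference -26.18 ± 2.3, adjusted p = 0.0125). Vax2, which sets up the ventral retina (chromosome 6, 83711239 to 83738313), had 0% and 9.14% against 17.3% and 18.6%, a difference of -14.72 ± 2.61 (adjusted p = 0.0401). In each of these the lowest inhibitory value lay above the highest excitatory one.

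The normalized difference was below 0 for 24 of the 32 members tested (51.5% of all genes tested), and for 21 without normalization. Both inhibitory libraries lay above both excitatory at 12 members (20.3% of all genes tested) and both excitatory above both inhibitory at 6 (25.6%). After the 4 that passed, Nkx6-1 had the largest difference, with 0% and 9.07% against 20.2% and 14.7% (-14.17 ± 3.09, adjusted p = 0.0666). In the excitatory direction, among members whose groups did not overlap, the largest differences were those of Isl1, with 11.2% and 8.04% against 0% and 0% (8.63 ± 2.73, adjusted p = 0.161), and of Pax8, a thyroid and kidney gene, with 6.46% and 10.8% against 0% and 0% (7.73 ± 1.96, adjusted p = 0.0964). Nkx2-2 had 8.62% and 14.4% against 4.3% and 2.81% (6.95 ± 2.13, adjusted p = 0.152) but differed by -10.37 points around its start (adjusted p = 0.248). Pax7 had 4.55% and 6.86% against 2.3% and 0% (3.89 ± 1.96, adjusted p = 0.370), and Pax9 differed by 1.85 ± 2.08 points (adjusted p = 0.717). None of the 6 passed the test at the ends, though over the whole gene body with flanks Isl1 did (8.53 ± 0.72, adjusted p = 0.0393). Only 32 members were covered in the 2 or more libraries that the test needs: Pax1, Nkx2-9, Lhx4 and Hmx1 were not tested. No member passed when the second excitatory library or either inhibitory library was left out, or without normalization between libraries. The marker lists moved in the same direction: of 12 thalamic, hypothalamic and brainstem markers, most of them homeobox genes themselves, H3K4me3 was higher in inhibitory libraries at 5 and H3K4me1 at 4, with H3K4me3 medians of 4.1% and 7.81% against 15.9% in each inhibitory library. The part of such cells in the members' differences was not tested.

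Gene ends are not always starts. At 8 members (Pax1, Pax9, Six3, Nkx2-2, Nkx2-5, Lhx4, Lhx9 and Isl2) the start in the promoter table lay more than 2 kb from the end of the annotated gene, so the first window missed it. Within 2 kb of the start, 6 of the 23 members tested there passed, all higher in inhibitory libraries (4.65% of all genes tested passed, and 1.76% in that direction). Beside Six2, Nkx1-1 and Lhx1 these were Six3, Nkx6-1 and Lhx4. Six3, a regulator of the forebrain and eye, had 17.1% and 13.8% in excitatory and 33.7% and 37.5% in inhibitory libraries at its start (difference -21.98 ± 4.38, adjusted p = 0.0409). At its gene ends the difference was 7.86 ± 3.85 points in the other direction (adjusted p = 0.359), with 4.21% and 17.8% against 4.60% and 0%. Lhx4, a pituitary and motor neuron gene, had 15.3% and 22.9% against 33.8% and 42.7% at its start (-20.40 ± 3.91, adjusted p = 0.0370). Nkx6-1 had 0% and 18.1% against 35.8% and 29.3% (-25.89 ± 5.21, adjusted p = 0.0421). At the start of all 6 the groups did not overlap.

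**Figure D3:**
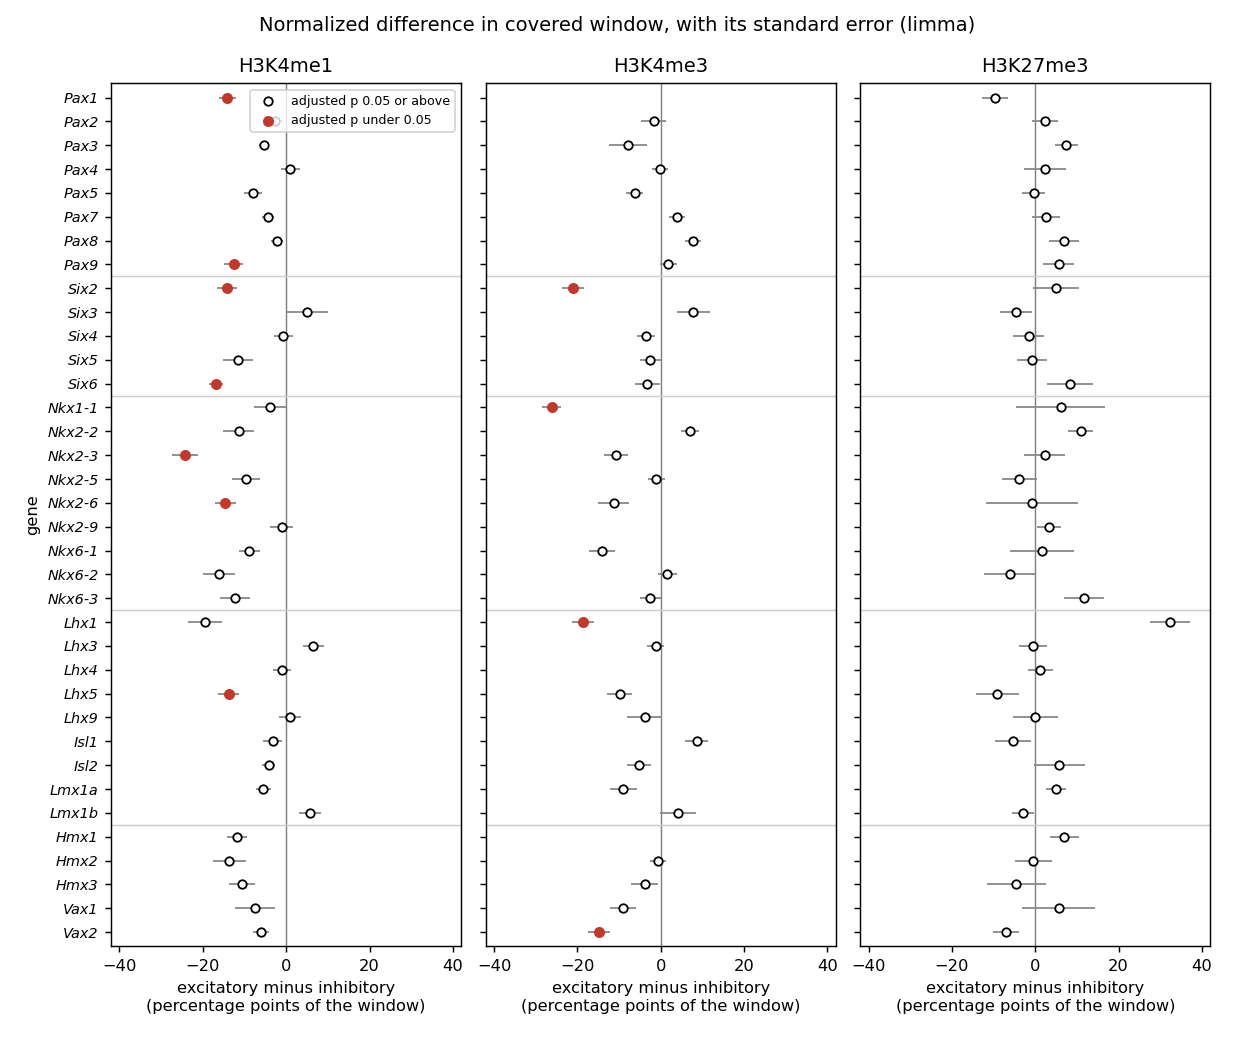
Normalized excitatory minus inhibitory difference in covered window (x axis, percentage points; bars are limma's standard error) for each member (y axis, lines part the families), filled where the adjusted p was under 0.05 and absent where the gene was not tested. The filled points, 7 in H3K4me1 and 4 in H3K4me3, all lie to the left of 0, and Lhx1 lies apart to the right in H3K27me3.

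In H3K4me1 the calls over the gene body and its flanks were likewise all in 1 direction. Of the 36 members 7 changed (4.06% of all genes tested did), and all 7 were higher in inhibitory libraries (1.53% of all genes, against 2.53% higher in excitatory): Pax1, Pax9, Six2, Six6, Nkx2-3, Nkx2-6 and Lhx5. The normalized difference was below 0 for 31 of the 36 and for 52.7% of all genes. Its median was -7.66 points over the members and -0.34 over all genes. Without normalization 26 of the 36 were below 0, while the median of all genes moved to 1.85.

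The largest of these differences were in the NK and sine oculis families. Nkx2-3, a gene of the spleen and gut (chromosome 19, 43612325 to 43615892), was covered to 6.02% and 0% in excitatory and 23.5% and 30.3% in inhibitory libraries (-24.28 ± 3.14, adjusted p = 0.0401). Six6, a gene of the eye, hypothalamus and pituitary (chromosome 12, 72939882 to 72944899), had no H3K4me1 peak in either excitatory library and 15.9% and 14.8% in the inhibitory ones (-16.86 ± 1.73, adjusted p = 0.0401). As given above, it entered the test through its inhibitory libraries alone. At its start H3K27me3 covered 73.8% and 65.9% in excitatory and 53.8% and 55.8% in inhibitory libraries, so both cell types carried that mark there.

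Nkx2-6 (chromosome 14, 69171802 to 69175540) had 7.54% and 5.58% against 21.8% and 15.1% (-14.57 ± 2.59, adjusted p = 0.0467). Six2 had 7.15% and 6.89% against 17.6% and 19.99% (-14.22 ± 2.36, adjusted p = 0.0454) and was thus higher in inhibitory libraries in H3K4me1 and H3K4me3. Pax1, which acts in the vertebral column and thymus (chromosome 2, 147361930 to 147375049), had 2.2% and 1.83% against 13.1% and 14.6% (-14.08 ± 2.0, adjusted p = 0.0401). Lhx5, a forebrain and Purkinje cell gene (chromosome 5, 120431886 to 120441457), had 5.18% and 10.3% against 19.4% and 18.1% (-13.82 ± 2.49, adjusted p = 0.0474). Pax9, a gene of teeth, palate and thymus (chromosome 12, 56691693 to 56712824), had 2.67% and 0.94% against 10.5% and 13.9% (-12.59 ± 2.28, adjusted p = 0.0482). Nkx6-2, short of the threshold, had 13.8% and 10.2% against 30.8% and 20.8% (-16.07 ± 3.78, adjusted p = 0.0718). The groups did not overlap in any of the 7.

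By family, all 9 NK genes and all 5 HMX and VAX genes had a difference below 0, as did 7 of 8 paired, 4 of 5 sine oculis and 6 of 9 LIM genes. Both inhibitory libraries lay above both excitatory at 21 members (15.3% of all genes tested) and the reverse held at 5 (39.3%): Six4, Lhx3, Lhx4, Lhx9 and Lmx1b. Lhx3, which acts with Lhx4 in the pituitary and motor neurons, had 18.9% and 17.8% in excitatory and 11.2% and 6.52% in inhibitory libraries (6.55 ± 2.62, adjusted p = 0.188). Lmx1b had 18.9% and 17.1% against 9.48% and 9.19% (5.70 ± 2.71, adjusted p = 0.251). At the gene ends the Lmx1b difference was -5.93 points (adjusted p = 0.706). For Lhx4, Lhx9 and Six4 the normalized differences were -1.06 ± 2.19, 0.94 ± 2.65 and -0.69 ± 2.35 points (adjusted p of 0.795, 0.856 and 0.881). No member passed when the first excitatory library or either inhibitory library was left out, and 2 (Six6 and Nkx2-3) passed without the second excitatory library. When each list was cut to its strongest peaks, as many as the shortest H3K4me1 list holds, none passed. Without normalization 5 passed, all higher in inhibitory libraries (Pax1, Pax9, Six6, Nkx2-3 and Lhx1).

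At the start itself the cell types parted further. An H3K4me1 peak lay over the start base of 16.7% and 23.3% of the 30 members in excitatory and of 56.7% and 46.7% in inhibitory libraries, whereas the shares of all genes were 16.3% to 21.4% in the 4 libraries. Within 2 kb of the start the median member was covered to 14.8% and 10.9%, and to 43.4% and 39.2%. The median of all genes there was 17.8% and 21.4%, and 18.3% and 15.1%. The H3K4me1 lists also differ in quality between the cell types: 0.0087% and 0.219% of the excitatory peaks and 1.43% and 9.61% of the inhibitory peaks pass a q-value of 0.05, and the part of this in the result was not tested.

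**Figure D4:**
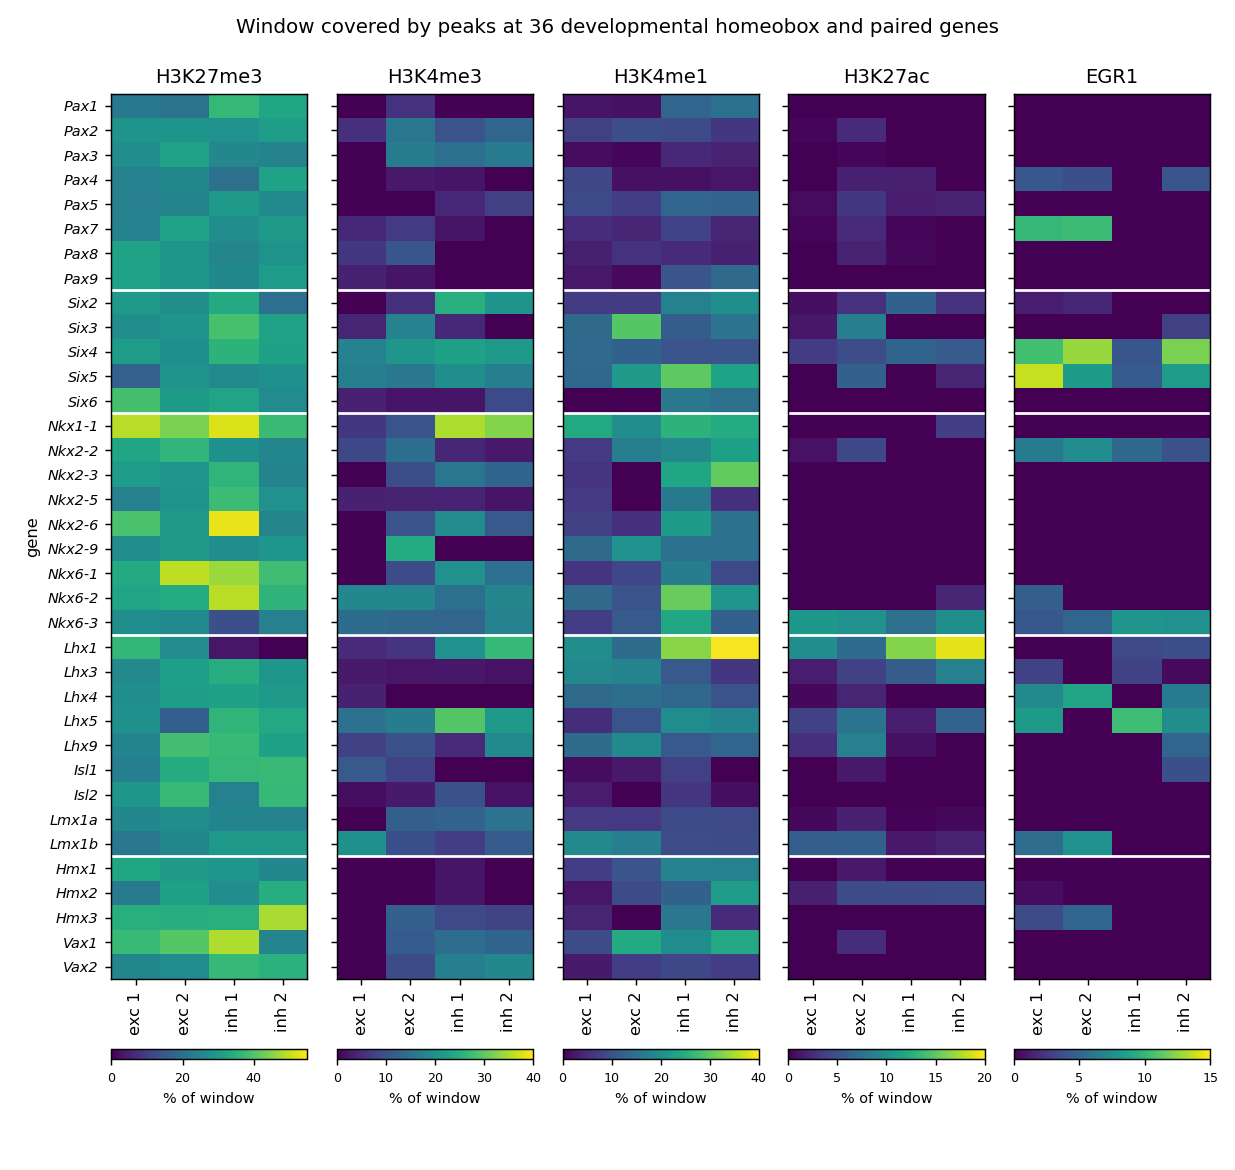
Percentage of the window covered by peaks (colour, a scale for each antibody) for the 36 members (rows, white lines part the paired, sine oculis, NK, LIM and HMX with VAX families) in each of the 4 libraries of an antibody (columns; exc excitatory, inh inhibitory). H3K27me3 is present in every row apart from Lhx1 in the second inhibitory library, while 11 rows are empty in H3K27ac and 18 in EGR1.

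H3K27ac covered little of these genes. A peak lay in the window of 16 members in both excitatory libraries (44.4%, against 72.7% of all genes) and of 10 in both inhibitory libraries (27.8%, against 67.2%). At 11 members no library had a peak in the window (16.6% of all genes), among them Pax1, Pax9, Six6, Nkx2-3 and Nkx2-5, the cardiac NK gene. The median member had 0% and 1.91% in excitatory and 0% in both inhibitory libraries, where the median of all genes ran from 3.97% to 6.84%. The highest values were those of Lhx1, given above, and of Nkx6-3, whose window touches Ank1, with 10.7% and 10.1% against 7.42% and 9.94%. None of the 36 members (19 were tested) and 0.0% of all genes (0 of 16654) passed the test, and 6 members and 3039 genes had an unadjusted p under 0.05. Lhx9, a gene of the gonad and the thalamus, had 2.69% and 8.74% against 0.87% and 0% (4.58 ± 1.74, adjusted p = 0.258), and Six3 had 1.28% and 8.63% against 0% and 0% (4.29 ± 2.06, adjusted p = 0.347). In the other direction Lhx3, next to Qsox2, had 1.61% and 3.84% against 5.89% and 8.69% (-5.31 ± 1.24, adjusted p = 0.152), and Six2 had 0.82% and 2.87% against 6.18% and 2.89% (-4.07 ± 1.25, adjusted p = 0.198). Both excitatory libraries lay above both inhibitory at 9 members (24.9% of all genes tested) and both inhibitory above both excitatory at 5 (26.2%). The normalized difference was below 0 for 10 of the 19 tested (51.1%). Lmx1b and Nkx2-2 differed by 3.19 ± 1.46 and 1.05 ± 0.48 points (adjusted p = 0.330 and 0.333), and Hmx2 and Six4 by -2.79 ± 0.96 and -2.75 ± 1.44 (adjusted p = 0.225 and 0.380).

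EGR1 was also sparse. No library had an EGR1 peak at the ends of 18 members (29.4% of all genes), and the median member was at 0% in all 4 libraries, where the median of all genes ran from 5.59% to 8.71%. The highest values were at Six4 (10.5% and 12.7%, and 3.99% and 12.0%) and Six5 (13.7% and 8.20%, and 4.22% and 8.30%). The start of Mnat1 (73112185, plus strand) lies inside the window at the Six4 end (73114031). At Six5 the windows at the ends reach into Dmpk and Bhmg1. Peaks there cannot be assigned to Six4 or Six5 alone. None of the 36 members (13 were tested) and 0.0% of all genes (0 of 14310) passed the test, and 3 members and 2107 genes had an unadjusted p under 0.05. Pax7, a dorsal neural tube and muscle stem cell gene that entered the test through its excitatory libraries alone, had 9.97% and 10.3% in excitatory and no peak in either inhibitory library (7.54 ± 1.37, adjusted p = 0.115). Nkx6-3 had 4.14% and 4.87% against 7.84% and 7.59% (-5.98 ± 1.52, adjusted p = 0.167). Both excitatory libraries lay above both inhibitory at 6 members (47.4% of all genes tested) and the reverse held at 2, Nkx6-3 and Lhx1 (6.04%). The difference was below 0 for 7 of the 13 tested (55.5%). Lmx1b had 5.39% and 7.57% against no peak (3.42 ± 1.46, adjusted p = 0.356), and Lhx4, Hmx3 and Six2 differed by 2.68 ± 2.02, 0.93 ± 1.21 and -0.83 ± 1.08 points (adjusted p of 0.583, 0.754 and 0.754). The EGR1 motif GCGNGGGCG, searched on both strands of the 250 bases before the start, was found in 2 of the 35 member promoters (5.7%; Nkx1-1 and Nkx6-2) and in 6.4% of all promoters.

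Some members are neighbours. Hmx2 and Hmx3 lie 2.7 kb apart on chromosome 7, so their windows overlap and share peaks. Six3 and Six2 lie 36.5 kb apart on chromosome 17, and at both the start was higher in H3K4me3 in inhibitory libraries. Across members the differences of H3K4me1 and H3K4me3 were loosely related (Pearson's r = 0.36 over 32 members, 0.33 over all genes). For H3K27me3 and H3K4me3 r was -0.28 over 32 members and -0.26 over all genes. Without Lhx1 it was -0.08, so the value over members rested largely on that gene. Genes are not independent replicates, and these values are a description.

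Homeobox genes of other families were set beside the members. There were 63 such genes. Of 62 tested in H3K4me1, 11 were higher in inhibitory libraries (led by Tlx3, Barhl2, Otx2 and Msx1) and 2 in excitatory libraries. The shares of all genes tested were 1.53% and 2.53%. Of 61 tested in H3K4me3, 10 were higher in inhibitory libraries (1.22% of all genes tested). Tlx3, Barhl2 and Otx2 are also among the thalamic, hypothalamic and brainstem markers given above, so the lists overlap. Median H3K27me3 over these 63 was 26.9% and 27.4% in excitatory and 30.1% and 28.5% in inhibitory libraries. The 40 genes of the Polycomb and trithorax machinery had median H3K27me3 of 0% in 3 libraries and 1.16% in the first inhibitory library, and 1 of them, the demethylase gene Kdm6a, was higher in inhibitory libraries in H3K4me1. No test set the 36 members against these other genes.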

How the data were processed

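Nuclei of mouse whole brain were profiled by CUT&RUN with 5 antibodies in 2 labelled cell types, 2 libraries each. The submitters' processing notes name build mm10 and these tools: MACS2 2.2.5, Bowtie2 2.3.5, cutadapt 1.18 with Trim Galore 0.5.0, SAMtools 1.12 and Picard 2.25.0, without their order. The authors deposited a peak list per library, not pooled: broad for H3K4me1 and H3K27me3, narrow otherwise. Each deposited peak has a fold enrichment (a ratio), a -log10 p, a -log10 q and a score. Fold and score entered no test. Lists hold no counts, so depth and counting error are unknown, and lenient lists make coverage depend on enrichment as well.

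Peaks were merged within a library and the covered percentage of each window was taken per gene (Python 3.11.15, pandas 2.3.3). Genes covered in at least 2 libraries were quantile-normalized over the 4 libraries of an antibody and tested with limma 3.58.1 (lmFit, eBayes with trend; R 4.3.3), two-sided, Benjamini-Hochberg over all genes tested, threshold 0.05. An exact permutation test of 2 against 2 libraries cannot go below 0.333. The fit was tested on simulated data with shifts larger than any difference given here and without empty windows. That test does not show how well differences of the size reported are found. Groups and replicate numbers came from the sample titles; names inside the EGR1 lists carry other replicate numbers. Members and lists were chosen with earlier results of these data known. Named in full are members past the threshold and, per antibody and direction, up to 5 with the largest difference among those whose groups do not overlap. Promoter entries matched 30 of 36 members. Alternatives were other windows, peak cutoffs, filters and normalization, a replicate block and leaving out each library.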

Additional observations from a re-analysis of the deposited data

How the results depend on the processing

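The H3K4me1 count of 7 members fell to 0 when each list was cut to the length of the shortest, with a -log10 p of at least 3 (4 members tested) or at least 2 (chosen after the data were seen), and with no filter on coverage, and to 2 with the window at gene ends. It was 5 without normalization, where 1043 of 1211 genes called were higher in excitatory libraries, against 456 of 732 with it. The H3K4me3 count of 4 became 0 without normalization or without the filter and 2 with the gene body window (Nkx1-1, and Isl1 higher in excitatory libraries). The EGR1 count of 0 became 1 with the gene body window (Six3). In the span drawn around the Six3 start, EGR1 peaks lay in both inhibitory libraries and in neither excitatory library. Within that span the filter on coverage thus set the direction of the Six3 difference and the lack of overlap. Leaving out each library in turn gave 0 to 2 members for H3K4me1, 0 to 2 for H3K27ac (Six3 and Nkx2-2 without the first excitatory library, Six3 without the second), 0 to 5 for H3K4me3, and 0 for H3K27me3 and EGR1. Members with H3K4me3 and H3K27me3 at the same end, 16 in excitatory and 24 in inhibitory libraries, numbered 5 and 15 with 500 bases required, 9 and 15 within 1 kb, 0 and 0 with a -log10 p of at least 3, 3 and 2 with at least 2, and 20 to 32 and 24 to 29 without a replicate number. With a -log10 p of at least 3 no member could be tested in H3K27me3. For the counts of both marks at an end, the stricter settings could only lower the number, and leaving out a replicate number could only raise it. Beyond that, the cause of these changes was not tested. For members past the threshold, 26 single values still passed under an alternative, 84 did not and 0 had the other sign. For named members that had not passed, 11 values newly passed and 15 had the other sign, such as Pax1 and Lhx5 in H3K27me3.

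Same-numbered libraries did not deviate together (correlations of -0.0168 to 0.0595 over genes), so the numbers were not taken as pairs. With the replicate block, 0 members passed in H3K4me1, 7 in H3K4me3, 3 in H3K27ac (Six2, Six3 and Lhx9), and 0 in H3K27me3 and EGR1. The lack of read counts and the lenient H3K27me3 and H3K4me1 lists limit all coverage values.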
